A study of Mus musculus with 2 samples.

Results

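The immunoglobulin genes are the germline segments and constant genes from which B cells assemble antibody. They were chosen by annotation alone, as every gene whose GENCODE M21 type begins with IG_ and is not a pseudogene. This rule gave 268 genes of 55536 annotated genes. They comprise 13 constant genes (8 heavy, 1 kappa and 4 lambda), 222 variable (V) segments (115 heavy, 104 kappa and 3 lambda), 19 heavy diversity (D) segments and 14 joining (J) segments (4 heavy, 5 kappa and 5 lambda). The rule used no measured value. Another 164 immunoglobulin pseudogenes were left out, of which 3 had a read, with at most 2 counts.

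The polyadenylated RNA came from regulatory T cells, labelled inflammation-experienced, of a Foxp3CreERT2 x Rosa26YFP mouse that was male, adult and aged 6 months. In that strain a tamoxifen-inducible Cre is expressed under Foxp3 and a YFP reporter sits at Rosa26, and the labels give the cells as primary and as originating from a bone marrow hematopoietic cell. The labels name 1 group and 1 biological replicate, from which 2 technical libraries were made, so every spread and test below is between libraries of 1 source and no condition could be compared. No B cells, plasma cells or other T cells are part of the data used here.

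An antibody has paired heavy and light chains, each with a variable end that meets antigen and a constant end. The constant end of the heavy chain fixes the class. In developing B cells the Rag recombinase joins V, D and J segments of the heavy locus and then V and J segments of a light locus, and the joined segment is spliced to a constant gene. Ighm, the mu constant gene, lies first after the heavy J segments and is the class used by naive B cells, and class switching later replaces it with a gamma, epsilon or alpha gene. T cells assemble T cell receptor genes with the same recombinase and make no antibody. Transcripts of the unrearranged or partly rearranged heavy locus, which hold the mu constant exons without a V segment, are known in lymphocytes, T cells among them.

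Gene totals were 15386113 and 13604480 rounded estimated counts in technical replicates 1 and 2, and the upper limit behind a count of 0, taken as 3 counts, was 0.195 and 0.221 CPM. The labelled cell type was met by its markers: all 11 T cell and regulatory T cell markers were at 1 TPM or more in both libraries, from Trbc2 (3803 and 3725 TPM), Trac and Lck (1287 and 1169 TPM) to Foxp3 (22.1 and 17.9 TPM). TPM is a level scaled to a fixed sum in each library and already divided by transcript length, whereas CPM is scaled but not divided by length.

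Most immunoglobulin genes had no estimated count. Of the 268 genes, 205 had no estimated count in either library, 63 had a count in at least 1 library and 17 in both. The 205 include all 19 D segments, all kappa and lambda J segments and Ighj3, whose effective length of 0 nt allowed no count. These also stay in the 268 behind the percentage given next. The smaller gene table described below held reads for some of the 205, such as 12 and 10 for Ighj3. A level of 1 TPM or more in both libraries was reached by 7 genes, or 2.61%, against 24.3% of all annotated genes (13511). These were Ighm, Igkc, Ighd, Ighg3, the V segments Ighv6-4 and Igkv3-4, and the J segment Ighj1. Few counts stood behind the V and J segments: 7 and 7 for Ighv6-4, 5 and 4.67 for Igkv3-4, and 2 and 2 for Ighj1. At 10 or more estimated counts in both libraries, 4 genes remained. All immunoglobulin genes together took 16091 counts in technical replicate 1 and 12504 in technical replicate 2, which is 0.105% and 0.0919% of the gene counts.

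Ighm stood far above every other immunoglobulin gene. It lies at chr12:113418558-113422730 on the minus strand (mm10, ENSMUSG00000076617.9). Technical replicate 1 held 14954 counts (777 TPM) of it and technical replicate 2 held 12092 (706 TPM), a mean of 742 ± 49.8 TPM (SD, n = 2 technical libraries). By TPM it was number 189 and number 210 among all annotated genes. Trac, the alpha constant gene of the T cell receptor, was 3.90 and 4.20 times as high on the TPM scale. The smaller gene table, which the authors counted separately from genome alignments, held 3033 and 2894 counts for Ighm. Every stretch of 50 bases in the annotated Ighm transcripts occurs in no other annotated gene, so these reads are not shared with a paralog by sequence.

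The other heavy constant genes were low. Ighd, the delta constant gene, which naive B cells splice from the same primary transcript as Ighm, had 143 and 119 counts (7.68 and 6.17 TPM). It was thus 101 and 114 times below Ighm in TPM. Ighg3, a gamma class gene, had 29 and 32 counts (2.13 and 2.82 TPM). The gamma gene Ighg2b had 4 and 7 counts and the alpha gene Igha 3 and 6. Ighg1 and Ighg2c had 1 count each in technical replicate 1 and 0 in technical replicate 2, and Ighe, the epsilon gene, had 0 in both. The 6 switched classes together took 38 and 45 counts, or 0.236% (95% Clopper-Pearson interval 0.167 to 0.324) and 0.360% (0.263 to 0.481) of the immunoglobulin counts. Intervals on counts cover counting error only, because a PCR copy of a molecule is counted like a new one.

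Among the light constant genes only Igkc, the single kappa constant gene, was well measured. It lies at chr6:70726435-70726966 on the plus strand (ENSMUSG00000076609.2). It had 614 counts (102 TPM) in technical replicate 1 but 182 (34.3 TPM) in technical replicate 2, and the smaller table held 315 and 118 counts. Its single annotated exon holds no 50-base stretch of another gene, although the lincRNA Gm30211 (44 and 38 counts) spans it on the same strand. The lambda constant genes had few counts. Iglc2 had 16.3 and 3.57 counts, Iglc3 2.73 and 5.43, Iglc1 5 and 1, and Iglc4 0 in both. Iglc2 and Iglc3 are 94.3% identical over their constant transcripts, so the division of reads between them is uncertain. Kappa constant counts were 25.6 and 18.2 times the lambda constant counts.

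**Figure D1:**
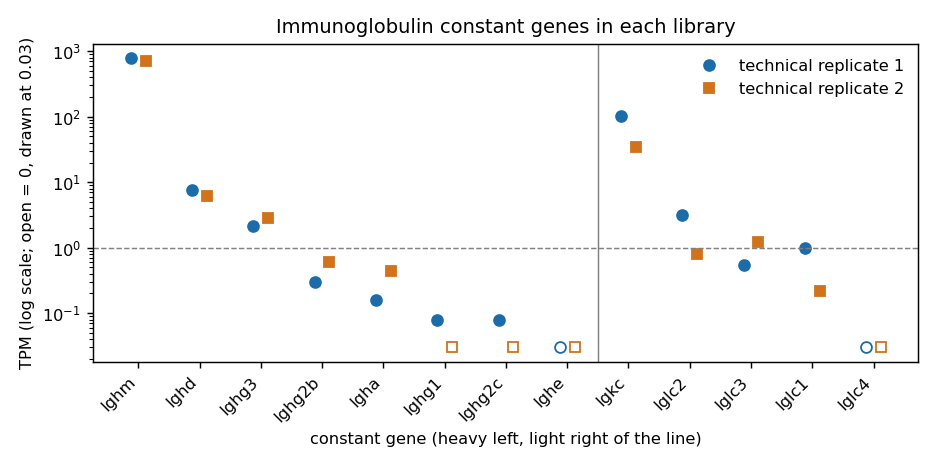
Level of each immunoglobulin constant gene in TPM (log axis) in technical replicates 1 (circles) and 2 (squares), with heavy genes left and light genes right of the vertical line. Open symbols are genes at 0, and the dashed line marks 1 TPM. Ighm is at 777 and 706 TPM, while Igkc, at 102 and 34.3 TPM, is the constant gene with the widest gap between libraries among those above 10 TPM.

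The classes differed in share as well as in level. Heavy constant genes took 94.1% (95% Clopper-Pearson interval 93.7 to 94.4) of the immunoglobulin counts in technical replicate 1 and 98.0% (97.8 to 98.3) in technical replicate 2. Ighm alone took 92.9% and 96.7%. Light constant genes took 3.97% (3.67 to 4.28) and 1.54% (1.33 to 1.77), and V segments 1.96% (1.76 to 2.19) and 0.424% (0.318 to 0.554). J segments took 0.0124% and 0.0240%, and D segments none. The order of heavy constant, light constant and V was the same in both libraries. Counts favour long transcripts, so the share of summed TPM was also taken. It was 77.5% and 86.1% for heavy constant genes, 10.5% and 4.40% for light constant genes, and 7.99% and 1.85% for V segments. J segments took 3.96% and 7.66% of summed TPM from 2 and 3 counts, since TPM divides by their very short effective lengths. In TPM, Ighm was 7.59 and 20.6 times as high as Igkc.

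The 2 annotated Ighm transcripts differ at their 3' end, which decides the form of the protein. Ighm-201 reads through the fourth exon into a tail that ends a secreted mu chain. Ighm-202 splices from within that exon to a pair of exons that encode the membrane anchor of the B cell receptor. They share 1305 nt, with 188 nt found only in Ighm-201 and 393 nt only in Ighm-202, so reads from the shared exons were divided between them by estimation. Their coding ends are shown because this is where the isoforms part. Each line starts with 30 shared bases in lower case and goes on, in capitals, with the bases of that transcript alone up to its stop codon (mm10, minus strand, chr12:113420867-113420958 for Ighm-201 and, spliced, chr12:113418826-113420958 for Ighm-202).
Ighm-201: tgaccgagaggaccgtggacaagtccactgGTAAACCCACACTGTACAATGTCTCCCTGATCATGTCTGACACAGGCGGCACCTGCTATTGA
Ighm-202: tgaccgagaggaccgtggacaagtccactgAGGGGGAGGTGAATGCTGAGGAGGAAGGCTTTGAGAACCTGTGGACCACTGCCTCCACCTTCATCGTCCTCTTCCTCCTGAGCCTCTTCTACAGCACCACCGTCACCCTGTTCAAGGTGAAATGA

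Both forms were present at similar levels. Ighm-201, the secreted form, had 378 and 309 TPM from 6778 and 4895 estimated counts. Ighm-202, the membrane form, had 399 and 398 TPM from 8176 and 7197 estimated counts. The deposited posterior SD of these counts, which covers the division of reads between the transcripts, was 125 in technical replicate 1 and 112 in technical replicate 2. The membrane form thus made up 51.4% of Ighm TPM in technical replicate 1 and 56.3% in technical replicate 2, a mean of 53.8% ± 3.47 (SD, n = 2). By share of estimated counts it made up 54.7% and 59.5%. It was the larger part in both libraries. The membrane form differed less between the libraries than the secreted form did, a difference that was not tested. For the delta gene, the longer Ighd-202 held 74.2% and 100% of Ighd TPM, on 143 and 119 counts. Of Ighg3, the shorter transcript held 95.5% and 100% of TPM.

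**Figure D2:**
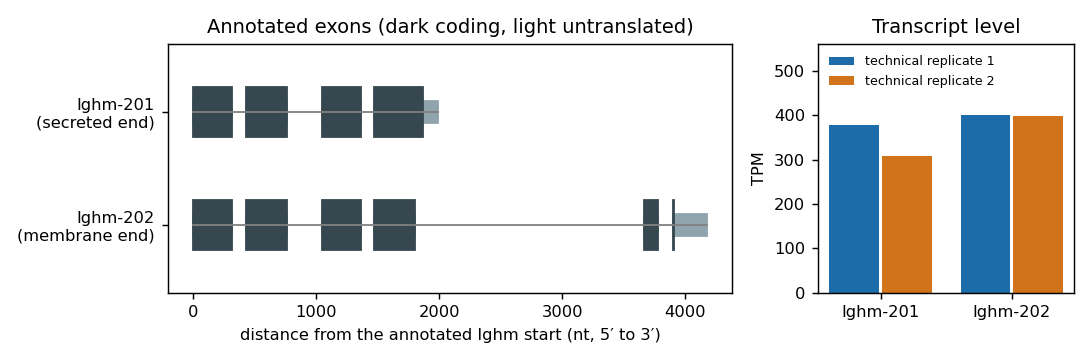
Left, annotated exons of both Ighm transcripts by distance in nt from the annotated 5' start, with coding parts dark and untranslated parts light. Right, TPM of each transcript in technical replicates 1 and 2 from a bar axis that starts at 0. Ighm-202 is at 399 and 398 TPM and Ighm-201 at 378 and 309 TPM.

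Of the 222 V segments, 50 had a count in either library. Only 7 had one in both, while 25 had one in technical replicate 1 alone and 18 in technical replicate 2 alone. The remaining 172 had none. V segments resemble each other, and the median V segment had 77.6% of its 50-base stretches unique to it, with all unique in 45 segments and under 50% in 34. Counts of single V segments are therefore uncertain where paralogs are close.

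Both V segments with more than 7 counts were high in technical replicate 1 only. The kappa segment Igkv14-111 (chr6:68256389-68256869, plus strand) had 205 counts (51.7 TPM) in technical replicate 1 but 3 (0.86 TPM) in technical replicate 2. The smaller table held 174 and 5 counts for it. The heavy segment Ighv6-6 (chr12:114434788-114435244, minus strand) had 50.4 counts and 13.2 TPM, then 1.5 counts and 0.44 TPM, with 34 and 0 counts in the smaller table. In technical replicate 1 Igkv14-111 held 86.1% of the kappa V counts and Ighv6-6 66.3% of the heavy V counts. In technical replicate 2 they held 13.0% and 5.41%.

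Their V exons are shown because these segments carry most V counts in technical replicate 1 and because paralogs could take such reads. Capitals mark bases that differ from the nearest other V exon, which is Igkv14-126 for Igkv14-111 (27 of 298 bases, 90.9% identical) and Ighv6-3 for Ighv6-6 (23 of 311 bases, 92.6% identical). Igkv14-111 spans chr6:68256572-68256869 on the plus strand, and the last 300 bases of the Ighv6-6 exon span chr12:114434788-114435087 on the minus strand (mm10). All 50-base stretches of the Igkv14-111 transcript were unique to it, against 80.8% for Ighv6-6, which shares the others with Ighv6-3 and Ighv6-5.
Igkv14-111: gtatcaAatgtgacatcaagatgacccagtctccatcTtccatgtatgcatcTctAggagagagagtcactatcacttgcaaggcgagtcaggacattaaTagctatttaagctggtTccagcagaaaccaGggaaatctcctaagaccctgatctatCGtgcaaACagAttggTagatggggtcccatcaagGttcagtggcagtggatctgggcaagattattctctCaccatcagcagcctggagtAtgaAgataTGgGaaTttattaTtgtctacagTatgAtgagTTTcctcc
Ighv6-6: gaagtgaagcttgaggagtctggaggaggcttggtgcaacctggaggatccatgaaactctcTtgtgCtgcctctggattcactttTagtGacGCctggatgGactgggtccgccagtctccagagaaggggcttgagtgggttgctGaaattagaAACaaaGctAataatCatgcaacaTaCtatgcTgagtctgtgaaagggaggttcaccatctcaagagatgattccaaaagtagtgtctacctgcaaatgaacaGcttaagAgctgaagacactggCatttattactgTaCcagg

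The next V segments by mean count held at most 7 counts in each library. Ighv6-4 had 7 counts in each library, Igkv3-4 had 5 and 4.67, and Ighv6-3 had 2.59 and 4.50. Igkv1-110 had 6 and 0, Igkv19-93 had 4 and 0, Ighv1-74 had 3 and 0, Ighv1-75 had 0 and 4, and Igkv2-109 had 1 and 3. All V segments outside Igkv14-111 and Ighv6-6 together held 60.6 and 48.2 counts. Without those 2 segments the V share of immunoglobulin counts was 0.383% in technical replicate 1 and 0.386% in technical replicate 2, where it had been 1.96% and 0.424% with them.

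V segment reads were scarce beside the heavy constant genes. A spliced antibody or receptor message holds 1 V segment for each constant region, so the V counts were set beside the constant counts of their locus. In the heavy locus, V segments held 0.50% (95% Clopper-Pearson interval 0.394 to 0.625) of the V and constant counts in technical replicate 1 and 0.228% (0.152 to 0.329) in technical replicate 2. In the kappa locus they held 27.9% (24.9 to 31.1) and 11.2% (7.25 to 16.4). In the lambda locus, with 2 V counts in each library, the shares of 7.69% and 16.7% had intervals that reached from 0.946% to 25.1% and from 2.09% to 48.4%.

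The T cell receptor loci, which these cells do rearrange, give the scale. V segments held 21.9% and 22.3% of the V and constant counts at the alpha locus and 22.6% and 22.8% at the beta locus. On the TPM scale, which takes length into account, summed V level was 64.3% and 66.2% of the constant level at the alpha locus and 53.8% and 54.0% at the beta locus. It was 2.61% and 1.14% at the heavy immunoglobulin locus and 58.8% and 19.2% at the kappa locus. The heavy locus was thus below both receptor loci in each library, with intervals of the count shares that did not overlap. The kappa locus had no fixed place beside the receptor loci. In counts of the larger table its share was above both in technical replicate 1, where Igkv14-111 held most of its V counts, and below both in technical replicate 2. In TPM it lay between the beta and alpha loci in technical replicate 1 and below both in technical replicate 2. By the counts of the smaller table, V segments held 39% and 16.9% at the kappa locus and 1.91% and 0.862% at the heavy immunoglobulin locus. There they held 66.7% and 65% at the alpha locus and 84.1% and 83.3% at the beta locus. Alpha constant counts were 1167 and 1139 there, against 29082 and 25228 in the larger table. Beta constant counts were 1343 and 1307, against 45879 and 39504. V counts differed less, with 2337 and 2116 against 8170 and 7244 at the alpha locus. Shares from the smaller table are therefore not on the scale of the larger one, and the cause was not tested.

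**Figure D3:**
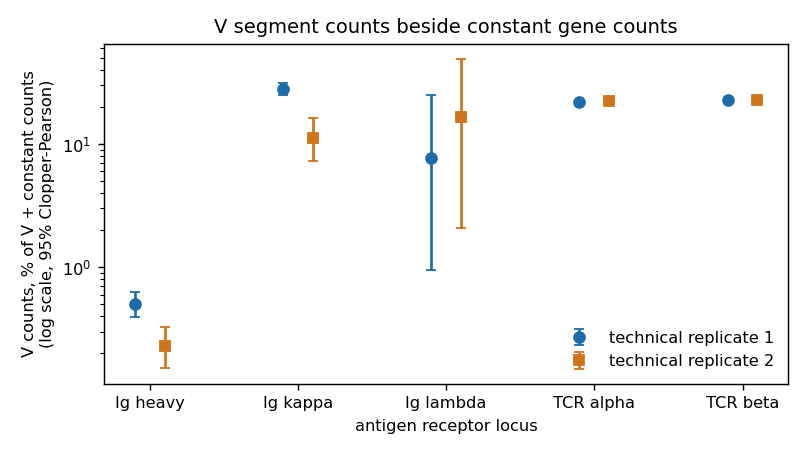
V segment counts as a percent of V plus constant gene counts (log axis) at 5 antigen receptor loci in technical replicates 1 (circles) and 2 (squares). Bars are 95% Clopper-Pearson intervals, which cover counting error only. The heavy immunoglobulin locus is at 0.50% and 0.228%, while the T cell receptor loci lie between 21.9% and 22.8%.

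D and J segments are short, which limits what the larger table can hold. All 19 D segments and all kappa and lambda J segments had an effective length of 0 nt there and therefore no count. The heavy J segments had effective lengths of 0 to 5 nt. Ighj1 had 2 counts in each library, which its effective length of 4 nt turned into 40.2 and 45.6 TPM, and Ighj4 had 0 and 1. These TPM values rest on 1 or 2 reads and are not comparable with those of longer genes. The smaller table, which counts reads over the genome, held more reads there. It uses GENCODE M4, and the extent of its D and J features could not be compared with that in GENCODE M21. Ighj1 had 34 and 27 counts, Ighj3 12 and 10, Ighj2 10 and 4, and Ighj4 5 and 7, a sum of 61 and 48 over the heavy J segments. This sum was as large as that of the heavy V segments in technical replicate 1 (61) and larger in technical replicate 2 (26). The D segments held 3 and 7 counts, of which Ighd4-1 had 2 and 4, Gm37327 had 1 and 0, and Ighd5-8, Ighd2-4 and Ighd1-1 each had 0 and 1.

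The heavy J segments are shown because they held reads where most V segments held none. Capitals mark TGGGG, which holds the conserved tryptophan codon of heavy J segments and the start of the glycine codon after it. Searched on the coding strand, it was found in 4 of 4 heavy, 0 of 5 kappa and 0 of 5 lambda J segments. Coordinates are mm10, minus strand: chr12:113429781-113429833 for Ighj1, chr12:113429468-113429515 for Ighj2, chr12:113429085-113429132 for Ighj3 and chr12:113428514-113428567 for Ighj4.
Ighj1: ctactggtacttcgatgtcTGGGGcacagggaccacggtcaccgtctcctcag
Ighj2: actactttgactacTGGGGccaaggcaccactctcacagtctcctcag
Ighj3: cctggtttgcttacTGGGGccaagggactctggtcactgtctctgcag
Ighj4: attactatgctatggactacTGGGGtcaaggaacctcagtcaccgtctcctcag

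The technical libraries were then compared gene by gene with a two-sided exact binomial test on rounded counts, for genes with at least 10 counts summed. It compares the reads of these libraries and no conditions. Of all 17334 genes tested, 19.2% were called at an adjusted p under 0.05, and 9.78% were called lower in technical replicate 2. Only 10 immunoglobulin genes had enough counts, 4 of them were called, and all 4 were lower in technical replicate 2. Entry went by summed counts, and Igkv14-111, Ighv6-6 and Iglc2 reached 10 counts in technical replicate 1 but not in technical replicate 2. The direction of these genes is therefore not independent of their entry into the test. The median log2 ratio of the 10 genes was -0.11, against -0.0035 for all genes tested.

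The called genes were Igkv14-111, Igkc, Ighv6-6 and Ighm, and they moved by very different amounts. Igkv14-111 was 60.5-fold higher in technical replicate 1 (95% counting interval 20.4 to 296; adjusted p = 1.83e-48, exact binomial test with Benjamini-Hochberg adjustment). Ighv6-6 was 22.1-fold higher (5.81 to 188; adjusted p = 1.70e-09, exact binomial test). Igkc was 2.99-fold higher (2.53 to 3.54; adjusted p = 1.15e-41, exact binomial test). Ighm was 1.09-fold higher (1.07 to 1.12; adjusted p = 4.20e-11, exact binomial test). Between the libraries, then, the kappa constant gene and a V segment from each of the kappa and heavy loci were lower in technical replicate 2 by several fold or more, while the change of Ighm was small.

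The other immunoglobulin genes tested were not called. Ighd was 1.06-fold higher in technical replicate 1, with an interval that included no change (0.828 to 1.37), and Ighg3 was at 0.802-fold (0.468 to 1.37). Iglc2 was 3.54-fold higher (1.14 to 14.5) and did not pass the adjusted threshold (adjusted p = 0.0940, exact binomial test).

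The binomial test allows only for read sampling, and the libraries differed by more than that (index of dispersion 4.98). With a common dispersion fitted by edgeR, 1.80% of all genes were called, and 3 of the 10 immunoglobulin genes: Igkv14-111, Igkc and Ighv6-6. In that test Ighm was not called (edgeR adjusted p = 1.00). By the exact binomial test on the smaller table, 6.62% of 11019 genes were called, and 3 of the 12 immunoglobulin genes tested, again Igkv14-111, Igkc and Ighv6-6, all lower in technical replicate 2. There the log2 ratio of Ighm was 0.06, the opposite sign (adjusted p = 0.333, exact binomial test).

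The same test was read for T cell receptor V segments. Of 129 tested, 13 (10.1%, against 19.2% of all genes tested) were called, 7 lower and 6 higher in technical replicate 2, with log2 ratios from -6.51 to 8.93. Both called immunoglobulin V segments, of 4 tested, were lower, and both had entered the test through their counts in technical replicate 1. Whether these proportions differ was not tested.

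**Figure D4:**
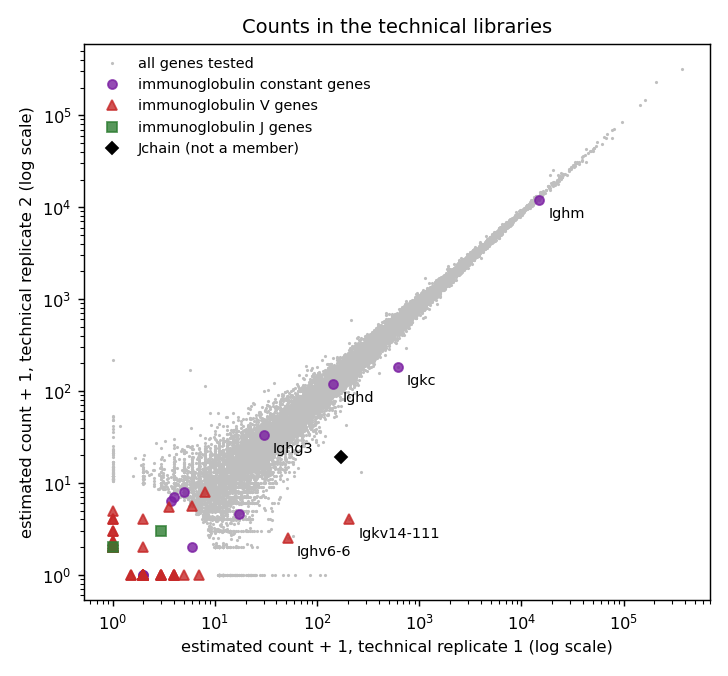
Estimated count plus 1 of each gene in technical replicate 1 (horizontal) and technical replicate 2 (vertical), both on log axes. Grey points are all genes tested, and coloured points are immunoglobulin genes with a count in either library. Ighm (14954 and 12092 counts), Ighd and Ighg3 differ little between the libraries, while Igkc, Igkv14-111, Ighv6-6 and Jchain are lower in technical replicate 2. Other genes fell as far. By fall in log2 count ratio among 17334 genes tested, Igkv14-111 was number 10, Ighv6-6 108, Jchain 132 and Igkc 489.

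Jchain, a marker of antibody-forming cells, was also lower in technical replicate 2. The 5 plasma cell markers tested, Jchain among them, had a median log2 count ratio of 0.06. Jchain encodes the chain that joins secreted IgM and IgA into polymers and lies outside the immunoglobulin loci. Its counts were 171 and 18, and its levels 10.2 and 1.22 TPM, in technical replicates 1 and 2. It was 8.41-fold higher in technical replicate 1 (5.16 to 14.5; adjusted p = 7.11e-26, exact binomial test). Of the 8 plasma cell markers, 4 were at 1 TPM or more in both libraries, namely Xbp1 (36.4 and 39.3 TPM), Irf4 (13.0 and 12.7), Prdm1 (9.26 and 9.51) and Jchain. Irf4 and Prdm1 are also used by effector regulatory T cells. The summed level of the list was 70.6 and 63.5 TPM, and Jchain was the only marker called of the 5 tested. The binomial test called 19.2% of all genes tested. Mzb1 had 6 and 0.57 counts, Derl3 4 and 6, Sdc1 2 and 3, and Tnfrsf17 was at 0 in both.

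B cell markers were low in both libraries. Of 14, 3 were at 1 TPM or more in both, with a summed level of 53.0 and 41.1 TPM for the list. They were Cd79b (36.6 and 29.7 TPM), a signalling chain of the B cell receptor, Cd22 (9.18 and 6.35), an inhibitory receptor, and Cr2 (2.53 and 1.44), the complement receptor CD21. The 10 tested had a median log2 count ratio of -0.264, against 0.06 for the plasma cell markers tested and -0.0035 for all genes tested. Cd79b was the only one of the 10 called, 1.19-fold higher in technical replicate 1 (adjusted p = 0.0448, exact binomial test). That test, which allows only for read sampling, called 19.2% of all genes tested. The defining genes were lower: Cd79a had 29 and 13.6 counts, Ms4a1 24 and 11, Pax5 23 and 25, Ebf1 8 and 7, and Fcrla 0 in both. Ighm was 468 and 803 times Cd79a in TPM, and 21.2 and 23.8 times Cd79b. In bulk RNA a few cells with much message and many cells with little cannot be told apart. The part of B or plasma cell RNA in the immunoglobulin levels, and in the difference between the libraries, was not tested.

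**Figure D5:**
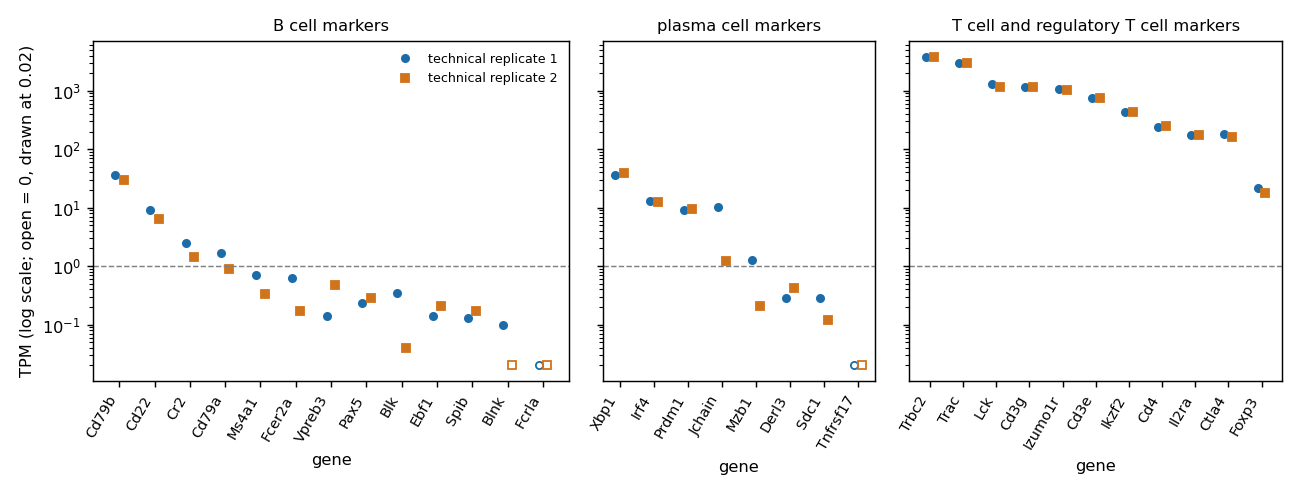
Level in TPM (log axis) of the B cell (all but 1 of 14), plasma cell and T cell or regulatory T cell markers in technical replicates 1 (circles) and 2 (squares), with open symbols for 0 and a dashed line at 1 TPM. The T cell markers lie between 17.9 and 3803 TPM over both libraries, most B cell markers lie under 1 TPM, and Jchain is the plasma cell marker with the widest gap among those above 1 TPM.

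The genes around immunoglobulin production were then taken by function. Of 9 genes of V(D)J recombination and class switching, 5 were at 1 TPM or more in both libraries, with Xrcc4 (25.2 and 19.0 TPM), Dclre1c (14.1 and 15.6) and Prkdc (7.61 and 6.59), all of the general end-joining repair machinery, the highest. Rag1 and Rag2, the recombinase itself, were at 0 counts in both libraries. Of the 6 tested, Xrcc4 and Lig4 were called lower in technical replicate 2 (adjusted p = 0.00176 and 0.0174, exact binomial test) and none higher, where 9.78% of all genes were called lower. None of the 3 surrogate light chain genes, which pair with a mu chain in precursor B cells, was at 1 TPM or more in both, with 6.07 and 5 counts for Vpreb1, 0 and 1 for Vpreb2, and 1 and 1 for Igll1.

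B cell receptor signalling genes were mostly low. Of 9, 3 were at 1 TPM or more in both: Cd81 (176 and 173 TPM), a tetraspanin that T cells also carry, Cd79b, and the kinase Lyn (1.91 and 1.89). Of the 7 tested, Cd79b and Btk (12 and 1 counts) were called lower and Syk (5 and 24 counts) higher in technical replicate 2. The binomial test called 19.2% of all genes tested. Of 20 factors known to bind immunoglobulin enhancers or promoters, 17 were at 1 TPM or more in both, led by Ets1 (631 and 587 TPM), Ikzf1 (103 and 104) and Nfkb1 (91.6 and 88.7), all of which T cells use as well. The same share of all genes, 19.2%, stands beside the calls among the 19 factors tested. Of these, Ets1 and Tfe3 (9.63 and 7.71 TPM) were called lower in technical replicate 2 and Irf8 (10.95 and 13.93) higher. The B cell factors Pax5 (0.23 and 0.29 TPM), Ebf1 (0.14 and 0.21) and Spi1 (0 and 0.23) were the 3 below 1 TPM.

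The listed receptors that bind antibody were low. None of 6 Fc and polymeric immunoglobulin receptor genes reached 1 TPM in both libraries. The highest were Fcgrt (0.60 and 0.62 TPM), Fcer2a (0.63 and 0.17) and Fcgr2b (0.52 and 0), and Pigr was at 0 in both. All 5 T cell receptor constant genes were at 1 TPM or more in both, led by Trbc2, Trac (3032 and 2964 TPM) and Trbc1 (2017 and 1949). Trbc1, Trbc2 and Tcrg-C1 were called lower in technical replicate 2 by the binomial test, which called 9.78% of all genes lower, with log2 count ratios of -0.05, -0.03 and -0.41. In either direction the binomial test, which allows only for read sampling, called 19.2% of all genes tested. Of the 11 T cell and regulatory T cell markers, 4 were called by it, all lower in technical replicate 2. They were Trbc2, the kinase Lck with a log2 count ratio of -0.13, the inhibitory receptor Ctla4 with -0.18 and the transcription factor Ikzf2 with -0.06.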

How the data were processed

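Polyadenylated RNA of 1 group, 1 biological replicate, was analysed in 2 technical libraries. The larger gene table and the transcript table hold estimated counts and posterior mean counts that the authors deposited, made from transcriptome alignments to mm10 with GENCODE M21. They also hold TPM, which the authors scaled per effective length, and each transcript's percent of its gene's TPM, which the authors also computed. The smaller gene table holds whole-number counts that the authors deposited, made from genome alignments with GENCODE M4, and 250 of the 268 genes have an identifier in it. The aligner, quantifier, strand setting and versions are not given in the sources used here. Gene totals were 15386113 and 13604480 in the larger and 3577274 and 3267116 (matched genes) in the smaller table, and 3 counts set the floor.

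The immunoglobulin genes and the 9 gene lists were chosen with earlier results of these data known. Named are every constant gene, the 10 V segments with the highest mean count, every D or J segment with a read, every called gene, every Ighm transcript, and of each list the 3 highest and those called, and other list genes were named after their values were seen. The values of 2 list genes are not reported here. Detection meant 1 TPM or more in both libraries. Estimated counts were rounded, and genes with 10 or more summed counts entered a two-sided exact binomial test (scipy 1.17.1). It was run against TMM effective library sizes (edgeR 4.0.16, R 4.3.3), with Benjamini-Hochberg adjustment over all genes at 0.05. The test was tried on simulated counts that held only Poisson sampling and set fold changes. They lacked the added spread between these libraries (index of dispersion 4.98), so they do not show how the test behaves under it. Log2 count ratios used 0.5 added counts and log2 TPM ratios a pseudocount of 1. An edgeR exact test with a common dispersion (coefficient of variation 0.105 and 0.0749) and DESeq2 1.42.0 size factors were alternatives. Uniqueness was the share of 50-base stretches of the GENCODE M21 transcripts found in no other gene. Sequences came from the same transcripts.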

Additional observations from a re-analysis of the deposited data

How the results depend on the processing

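No paired analysis was possible because the labels give only 1 group. The 7 genes detected in both libraries became 17 at 0.1 TPM, 3 at 10 TPM and 4 at 10 estimated counts, and numbered 11 to 12 in a single library. Mean shares of immunoglobulin counts were 96.0% for heavy constant genes, 2.75% for light constant genes and 1.19% for V segments. As shares of summed TPM they were 81.8%, 7.47% and 4.92%, and by the counts of the smaller table they were 87.9%, 6.11% and 4.27%. Single libraries gave 94.1% to 98.0%, 1.54% to 3.97% and 0.424% to 1.96%. The mean Ighm share of 94.8% was 85.1% in the smaller table. Without Ighm the light constant share was 51.4%. Mean Ighm level was 742 TPM, and 655 by posterior mean TPM. The cause of the shifts between units and between tables was not tested.

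Igkc remained lower in technical replicate 2 with log2 ratios from -1.59 to -1.28 over the alternatives (adjusted p from 2.43e-42 to 1.67e-07, exact binomial and edgeR tests). The 4 calls numbered 3 to 4 under every alternative run. The Ighm log2 ratio of -0.14 reversed to 0.065 in the smaller table. That of Ighv6-4 (-0.09, not called) reversed to 0.18 with TMM library sizes, 0.16 with DESeq2 size factors and 0.17 with edgeR. The alternatives for genes other than Igkc, the share without Ighm and that without Igkv14-111 and Ighv6-6 were chosen after seeing the data. Depth limits the V segments, all but 2 of which had at most 7 counts in each library, and the lambda genes.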
